A study of Mus musculus with 24 samples.

Results

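The genes of DNA replication and S phase were read out of the transcriptomes of sorted hippocampal cells. These cells came from mice with floxed or with wild-type Notch2, a Notch receptor. The set holds 47 gene symbols, listed by name for their known part in replication, of 48321 symbols in the count tables. All 47 were found, and all 47 passed the filter on low counts. The 3 conditional knockout (CKO) pools came from adult C57BL/6 mice carrying Hes5::CreERT2, Notch2 flox/flox and Rosa26R-CAG::GFP. The 3 wild-type (WT) pools came from adult C57BL/6 mice carrying Hes5::CreERT2, Notch2 wt/wt and Rosa26R-CAG::GFP. All mice had received tamoxifen for 5 days, and GFP-positive cells were sorted after a chase of 1 day. Each pool combined cells of several animals, and the reporter marks cells in which the Hes5-driven Cre, active in neural stem cells and other Hes5-expressing cells, had recombined. The comparison asked which replication genes differ when floxed Notch2 is targeted by Cre shortly before collection.

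Before S phase, the origin recognition complex, Cdc6 and Cdt1 load the Mcm2 to Mcm7 ring onto DNA, and Cdc45 and GINS turn the ring into a working helicase. DNA polymerase alpha with primase starts each strand, polymerases delta and epsilon extend it, and both are supported by the sliding clamp Pcna, its loader replication factor C and the single-strand binder RPA. Many of these genes are targets of E2F transcription factors. In the adult hippocampus most radial glia-like stem cells are quiescent, and their intermediate progenitors are the cells that divide often.

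Promoter windows of 250 bases before to 50 bases after the transcription start were read from RefSeq on GRCm38.p6 and searched for E2F words. The words were TTTGGCGC, TTTCCCGC, TTTGCCGC and TTTCGCGC, on both strands, with 0 mismatches allowed and overlaps counted. A window was held for 39 of the 47 genes (not Gmnn, Mcm4, Gins1, Gins2, Gins4, Prim2, Pole and Rfc2), and 16 of these (41%) had at least 1 match. The same was true of 704 of all 27025 genes with a window (2.6%), and of 512 of the 12025 tested genes with one (4.26%). The sequence CCAAT, on either strand, was in the windows of 23 of the 39 genes (59%) and of 41.1% of all genes. Mcm6 had 3 matches, at bases -110, -106 and -47 from the start, and the first and second share 4 bases, so that they form a run of 12. The same run, reverse complemented, stands in the window of Mcm5, and 4 genes of the whole table had it. The windows of Mcm6 and Mcm5 are shown for this shared run, and those of Uhrf1 and Rfc1 because these genes had the lowest unadjusted p among those higher in CKO pools. Uhrf1 had a match at -185 and Rfc1 had none. Each window is printed 5′ to 3′ on the gene's own strand, and capitals mark the E2F matches. Mcm6 lies at chr1:128359656-128359955 (minus strand), Mcm5 at chr8:75109259-75109558 (plus strand), Uhrf1 at chr17:56304063-56304362 (plus strand) and Rfc1 at chr5:65335590-65335889 (minus strand). A second window of Uhrf1 had no match.
Mcm6: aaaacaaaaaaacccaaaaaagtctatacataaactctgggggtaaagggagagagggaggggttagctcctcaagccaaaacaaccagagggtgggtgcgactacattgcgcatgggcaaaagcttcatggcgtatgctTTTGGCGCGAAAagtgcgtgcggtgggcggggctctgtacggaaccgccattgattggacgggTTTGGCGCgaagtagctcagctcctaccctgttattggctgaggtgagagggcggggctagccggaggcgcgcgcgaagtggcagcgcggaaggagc
Mcm5: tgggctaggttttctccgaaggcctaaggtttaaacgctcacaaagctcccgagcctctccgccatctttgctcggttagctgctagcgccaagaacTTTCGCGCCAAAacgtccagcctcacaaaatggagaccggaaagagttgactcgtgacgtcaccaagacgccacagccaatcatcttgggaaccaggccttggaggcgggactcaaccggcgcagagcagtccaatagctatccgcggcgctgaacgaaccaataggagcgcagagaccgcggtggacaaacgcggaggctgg
Uhrf1: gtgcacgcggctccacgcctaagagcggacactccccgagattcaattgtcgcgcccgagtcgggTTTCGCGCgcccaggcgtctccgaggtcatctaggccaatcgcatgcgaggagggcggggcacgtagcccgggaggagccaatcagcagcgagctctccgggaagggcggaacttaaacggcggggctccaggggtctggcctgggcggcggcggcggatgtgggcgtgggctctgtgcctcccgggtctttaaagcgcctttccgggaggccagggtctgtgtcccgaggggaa
Rfc1: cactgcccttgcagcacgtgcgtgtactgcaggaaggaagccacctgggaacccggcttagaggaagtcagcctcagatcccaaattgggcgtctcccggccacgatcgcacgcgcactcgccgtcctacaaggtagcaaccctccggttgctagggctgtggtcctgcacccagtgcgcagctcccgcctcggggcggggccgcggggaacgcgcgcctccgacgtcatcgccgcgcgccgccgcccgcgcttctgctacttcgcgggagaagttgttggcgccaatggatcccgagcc
A match to these letters is a description of the window and not a shown binding site. The 16 genes with a match had a median log2 fold change, CKO over WT, of 0.14, with 9 above 0. The 23 without a match had a median of -0.13, with 10 above 0. No test was run between them.

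Pools held 40366579 to 53984963 reads assigned to genes. Levels are given as CPM after TMM scaling of the library sizes, and 1 read was worth 0.0175 to 0.0265 CPM. Notch2 itself had 65.3, 116 and 121 CPM in CKO pools and 99.3, 146 and 303 CPM in WT pools. Its log2 fold change was -0.86 (SE 0.45, edgeR adjusted p = 0.79), the genotypes overlapped, and reads of any exons outside the floxed stretch are part of these counts. Each pool was sequenced as 2 libraries, and WT pool 3 stood apart: 25.9% of the tested genes differed at least 8-fold between its libraries, against 7.85% to 13.2% in the other 5 pools. The labels do not say whether the libraries of a pool came from the same cDNA. They tag CKO pools 1 to 3 with 19K, 4K and 9K and WT pools 1 to 3 with 20K, 12K and 2K, without saying what is counted. Markers of 8 cell types were present, and the summed level of every list overlapped between the genotypes. Mature astrocyte markers had the largest sums, 16428 to 26159 CPM in CKO pools and 18042 to 20649 CPM in WT pools. Mature neuron markers summed to 278 to 400 CPM in CKO pools and 816, 314 and 288 CPM in WT pools. For endothelial and mural markers the sums were 87.3 to 157 CPM in CKO pools and 269, 143 and 81.2 CPM in WT pools. Radial glia-like markers summed to 9149 to 13294 CPM in CKO pools and 5836 to 10700 CPM in WT pools. Intermediate progenitor and neuroblast markers summed to 353 to 369 CPM in CKO pools and 190 to 479 CPM in WT pools, with the defining gene Eomes at 6.59 to 10.2 CPM in CKO pools and 2.24 to 11.9 CPM in WT pools. Oligodendrocyte precursors, which also divide in the adult brain, had markers summing to 1185 to 3419 CPM in CKO pools and 1954 to 2866 CPM in WT pools. Oligodendrocyte markers summed to 3302 to 5715 CPM in CKO pools and 2431 to 6608 CPM in WT pools. Microglia markers had sums of 287 to 784 CPM in CKO pools, the highest in pool 3, and 315 to 393 CPM in WT pools. Of the 8 lists, the endothelial and mural one had 3 genes at 0 reads in some pool and the others had 0. The part of cell makeup in the values of the replication genes was not tested.

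Transcripts of the replication machinery were found in every pool, 45 of the 47 genes in all 6, and none of the 47 was called different between CKO and WT pools. The edgeR quasi-likelihood test over 21477 genes called 0 of the 47 at an adjusted p under 0.05 (smallest 0.79), and 0% of all tested genes. DESeq2 also called 0 of the 47, and 124 of 20810 genes with an adjusted p (0.596%). At an unadjusted p under 0.05 in edgeR, 2 of 47 genes were higher in CKO pools (4.26%), Rfc1 and Uhrf1, beside 3.01% of all tested genes. In the other direction 1 of 47 was lower (2.13%), Rfc2, beside 2.9% of all tested genes. Every CKO pool was above every WT pool for 3 of 47 genes (6.38%, beside 7.67% of tested genes), Mcm6, Rfc1 and Uhrf1. Every CKO pool was below every WT pool for 2 of 47 (4.26%, beside 8.17%), Orc6 and Rfc2. These shares are near or under those of all tested genes. The median log2 fold change of the 47 was -0.07, that of all tested genes -0.06, and 23 genes lay above 0 and 24 below. The sign of the median of the 47 changed with the setting, to 0.20 with limma-voom and 0.34 in library 1 alone. All tested genes had medians of 0.03 and -0.05 there. The SE of a gene ran from 0.24 to 1.69 with a median of 0.52. In sorted pools, fewer cells in S phase and less of a transcript per cell cannot be told apart.

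The summed level of the 47 genes was 1404, 1332 and 1409 CPM in CKO pools and 1524, 1102 and 1526 CPM in WT pools. The means were 1382 ± 43.0 CPM in CKO pools and 1384 ± 244 CPM in WT pools (SD, n = 3 each). The CKO pools therefore lay within the range of the WT pools, which were the more scattered. WT pool 2 was the highest of the 6 pools for 0 of the 47 genes (10.5% of tested genes), WT pool 1 for 17 (36.2%, against 25% of tested genes) and WT pool 3 for 13 (27.7%, against 24.5%). WT pool 3 was also the lowest for 17 (36.2%, against 28.8% of tested genes), and 8 of the 47 stood under 1 CPM there, against 0 to 2 in CKO pools and 0 to 4 in the other WT pools.

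**Figure D1:**
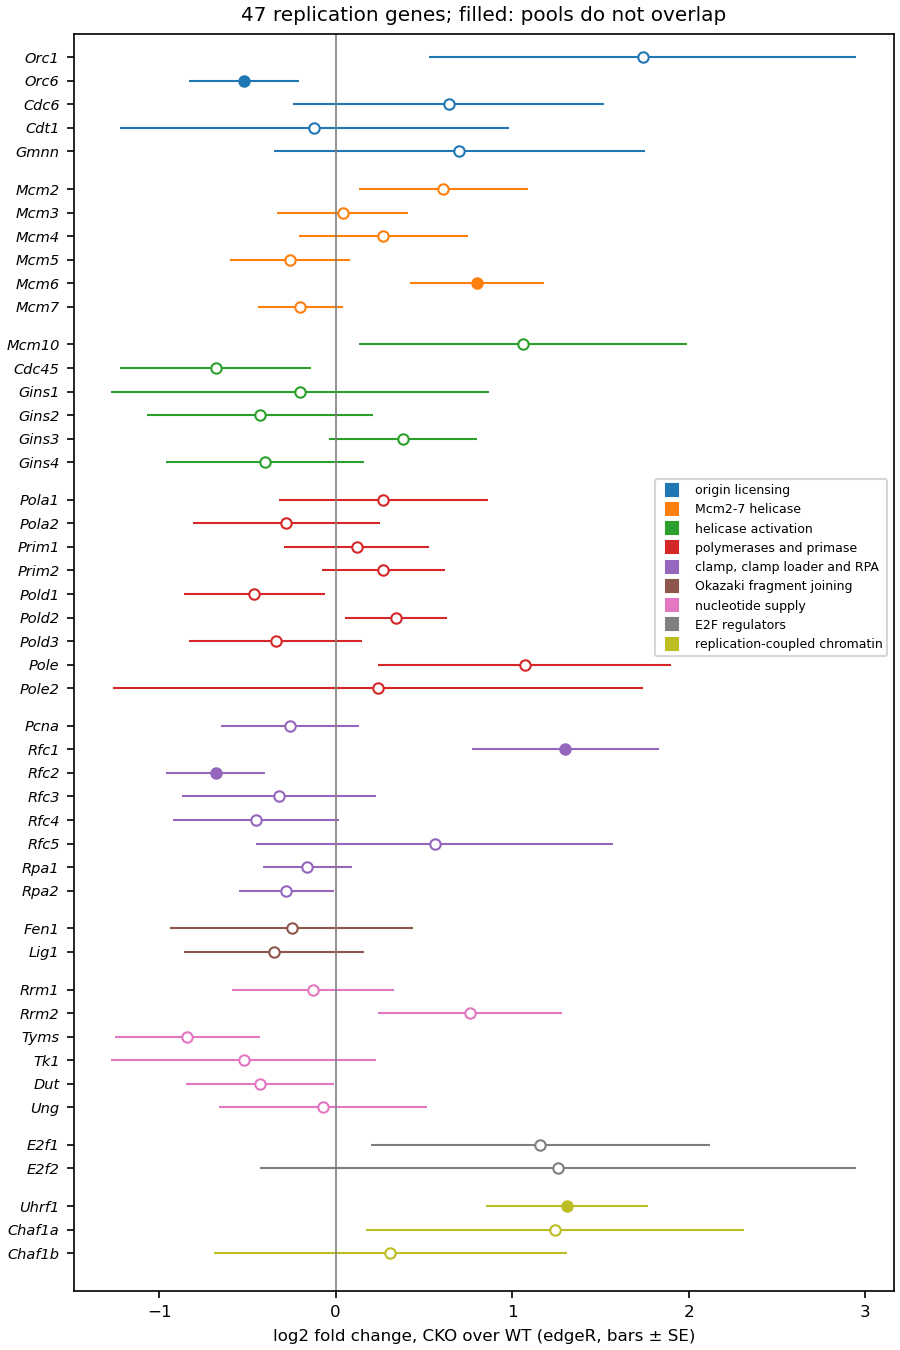
Log2 fold change, CKO over WT, of each of the 47 replication genes with its standard error from edgeR, grouped and coloured by role, with filled points for the 5 genes whose pools did not overlap. The points fall on both sides of 0, 23 above and 24 below, and run from -0.84 (Tyms) to 1.74 (Orc1).

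Among the genes that license origins, 3 of 5 were above 0. Orc6, a subunit of the origin recognition complex (GRCm38 chromosome 8, 85299632 to 85308278), had 35.3, 24.7 and 20.9 CPM in CKO pools and 39.6, 37.1 and 39.1 CPM in WT pools. Every CKO pool was below every WT pool, CKO pool 1 by the least. The means were 27.0 ± 7.47 CPM in CKO pools and 38.6 ± 1.33 CPM in WT pools (SD, n = 3 each), and the log2 fold change was -0.52 with an SE of 0.31 (edgeR adjusted p = 0.797). Without CKO pool 3 it was -0.32. Scaled to total counts alone, the Orc6 pools overlapped. The span of Orc6 overlaps that of Vps35 on the other strand, and the libraries do not mark strand. Spans of other genes of the 47, among them Mcm7, Rfc1, Rfc4 and Rfc5, overlap those of annotated neighbours as well. Whether exons are shared, and whether reads of neighbours entered these counts, was not tested. Orc1, the largest subunit, had 2.72, 5.90 and 1.77 CPM in CKO pools and 0.178, 2.69 and 0.238 CPM in WT pools. Its log2 fold change of 1.74 (SE 1.21) was the highest of all 47. Its genotypes overlapped through WT pool 2. The loaders Cdc6 (0.64) and Cdt1 (-0.12) and geminin, the inhibitor of Cdt1 (Gmnn, 0.70), had log2 fold changes smaller than their standard errors of 0.88, 1.10 and 1.05.

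Of the Mcm2 to Mcm7 helicase subunits, 4 of 6 were above 0, with a median log2 fold change of 0.15. Their SE ran from 0.24 to 0.48, but their libraries disagreed in WT pools, as given below. Within library 1 and library 2 taken singly, the SE of Mcm6 was 0.94 and 1.06. Mcm6 (chromosome 1, 128331590 to 128359664) had 88.4, 97.3 and 95.1 CPM in CKO pools and 70.4, 26.8 and 64.2 CPM in WT pools. The CKO pools sat close together and all above the WT pools, of which pool 2 was far the lowest. Means were 93.6 ± 4.64 CPM in CKO pools and 53.8 ± 23.6 CPM in WT pools (SD, n = 3 each), with a log2 fold change of 0.80 (SE 0.38, edgeR unadjusted p = 0.0714, adjusted p = 0.79). Without WT pool 2 it was 0.53. An exact two-sided permutation test gave p = 0.1, the smallest that 3 against 3 pools can give. Any gene whose pools do not overlap must give this value, as the other 4 did, so it adds no evidence. The remaining subunits ran from -0.26 for Mcm5 to 0.61 for Mcm2, and each overlapped between the genotypes.

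The libraries of WT pool 1 disagreed for many of the 47 genes, the Mcm ring among them. Library 1 was at least 4-fold lower than library 2 for 18 of 47 (38.3%, against 17.9% of tested genes), including all 6 ring subunits. The reads of library 1 and library 2 were 84 and 2292 for Mcm2, 29 and 1501 for Mcm3, and 348 and 1836 for Mcm4. They were 109 and 978 for Mcm5, 242 and 3319 for Mcm6, and 414 and 2761 for Mcm7. Genes outside the ring were lower in library 1 to a like degree, among them Cdc6 (22 and 420 reads), Uhrf1 (35 and 433), Rpa1 (707 and 5728), Rrm1 (406 and 3073) and Rrm2 (240 and 2009). In the same pool 18 of the 47 were higher in library 1, Pcna (2612 and 2352 reads) by a small margin and Pole (252 and 13) by the largest. Library 1 was also the lower for all 6 ring subunits in WT pool 2, by less for each. In WT pool 3 the libraries split gene by gene instead, with 2368 and 56 reads for Mcm6 and 16 and 1276 for Mcm5, and 17 of the 47 genes differed at least 8-fold there (36.2%, against 25.9% of tested genes). With WT pool 1 taken from its library 2 alone, a choice made after these values were seen, the Mcm6 fold change was 0.44 (SE 0.50) and its pools overlapped.

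**Figure D2:**
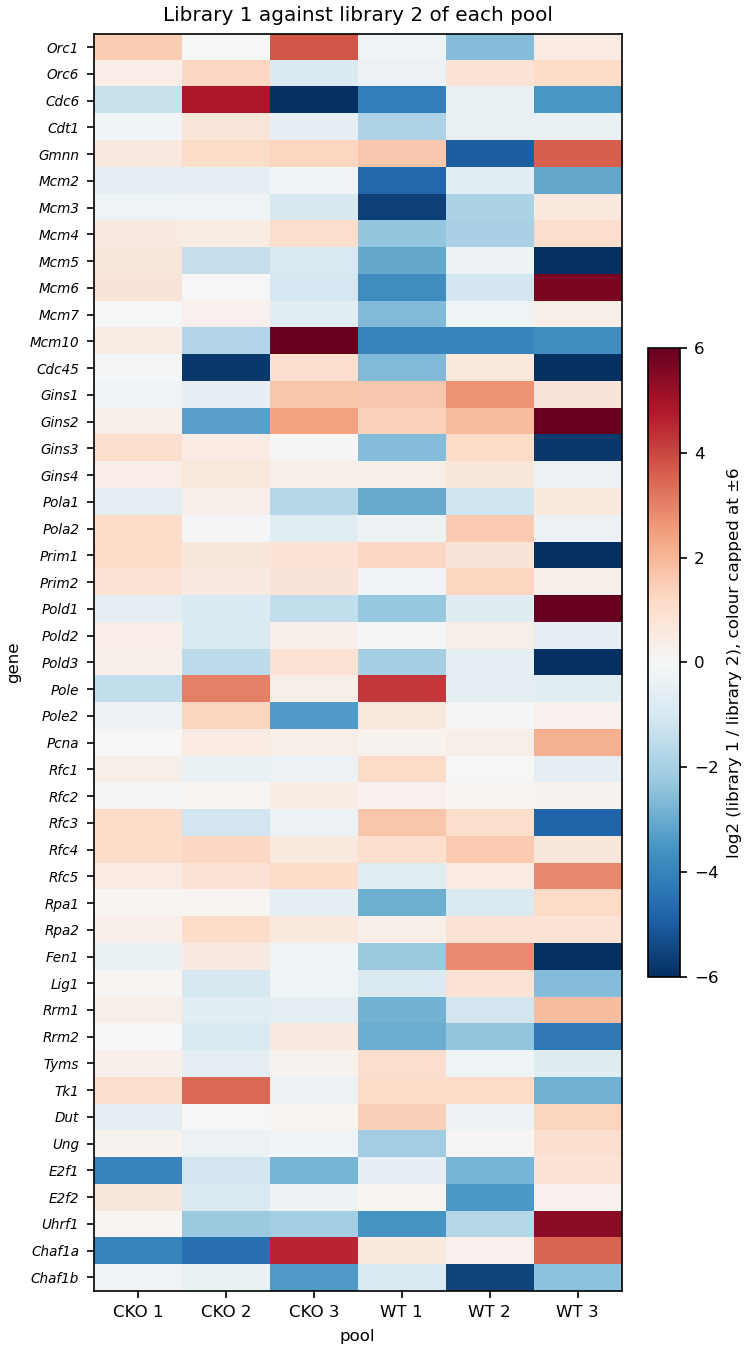
Log2 ratio of library 1 to library 2, scaled to library size with 1 read added, for the 47 genes (top to bottom by role) in the 6 pools. Strong colours are most frequent in WT pool 3 (17 genes at least 8-fold apart) and WT pool 1 (9 genes), where library 1 was lower for all 6 of Mcm2 to Mcm7 and for others such as Cdc6, Mcm10 and Uhrf1, and higher for Pole.

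Of the genes that activate the helicase, 2 of 6 were above 0, with a median log2 fold change of -0.30. Gins4, a subunit of the GINS complex and the most abundant of this group, had 28.9, 45.1 and 22.6 CPM in CKO pools and 67.4, 45.3 and 15.1 CPM in WT pools. The WT pools enclosed the CKO pools, and the fold change was -0.40 (SE 0.56, edgeR adjusted p = 0.872). The direction of Gins4 turned to 0.10 without WT pool 1. The other 5 ran from -0.68 for Cdc45 to 1.06 for Mcm10, the scaffold that follows helicase loading, and all overlapped. Gins1 had 14.5 and 11.6 CPM in WT pools 1 and 2 but 0.397 CPM in WT pool 3, and Gins2 in that pool had 758 reads in library 1 and 0 in library 2.

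Among the polymerases and primase, 6 of 9 were above 0 and the median was 0.24. Pold2, the small accessory subunit of polymerase delta, had 72.3, 55.2 and 48.0 CPM in CKO pools and 55.0, 46.8 and 37.2 CPM in WT pools. The genotypes overlapped across a narrow stretch, and the log2 fold change was 0.34 (SE 0.29, edgeR adjusted p = 0.82), against 0.16 without CKO pool 1 and 0.51 without CKO pool 3. The delta subunits did not point one way, since the catalytic Pold1 was at -0.46 (SE 0.40) and Pold3 at -0.34 (SE 0.49). The epsilon catalytic gene Pole was at 1.07 (SE 0.83) with 8.42, 20.8 and 12.3 CPM in CKO pools and 5.24, 13.1 and 1.32 CPM in WT pools. Its partner Pole2 was one of a pair of genes at 0 reads in WT pool 3, with E2f2. The primase and alpha genes Pola1, Pola2, Prim1 and Prim2 lay between -0.28 and 0.27.

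The clamp loader held one gene that was higher and one that was lower in every CKO pool. Rfc1, its large subunit (chromosome 5, 65261850 to 65335670), had 53.1, 48.7 and 45.4 CPM in CKO pools and 22.9, 30.1 and 6.70 CPM in WT pools. All CKO pools were above all WT pools, and WT pool 3 was the lowest by far. Means were 49.0 ± 3.87 CPM in CKO pools and 19.9 ± 12 CPM in WT pools (SD, n = 3 each), with a log2 fold change of 1.30 (SE 0.53, edgeR unadjusted p = 0.0441, adjusted p = 0.79). Without WT pool 3 the fold change was 0.89 (SE 0.27).

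Rfc2, a small subunit (chromosome 5, 134581366 to 134601805), had 48.2, 75.7 and 74.0 CPM in CKO pools and 125, 83.2 and 109 CPM in WT pools. All CKO pools were below all WT pools, although the highest CKO pool came near WT pool 2. The means were 66.0 ± 15.4 CPM in CKO pools and 106 ± 21 CPM in WT pools (SD, n = 3 each), with a log2 fold change of -0.68 (SE 0.28, edgeR unadjusted p = 0.0462, adjusted p = 0.79). The span of Rfc2 overlaps that of Lat2 on the other strand, which the libraries do not mark. Whether reads of Lat2 entered the Rfc2 count was not tested. Its unadjusted p was above 0.05 under both other scalings, so the count of lower genes was 0 there.

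Rfc1 and Rfc2 were the only genes of the 47 whose CKO and WT pools stayed apart within library 1 and again within library 2, beside 0.863% of 17609 genes for CKO above WT and 0.909% for CKO below. Within library 1 the Rfc1 log2 fold change was 1.02 and within library 2 it was 1.58. For Rfc2 it was -0.73 in library 1 and -0.65 in library 2. The ratio of Rfc1 to Rfc2 CPM, formed after these values were seen, was 1.10, 0.643 and 0.613 in CKO pools and 0.184, 0.362 and 0.0613 in WT pools. With Rfc1 higher and Rfc2 lower in every CKO pool, this ratio had to separate the genotypes and adds no evidence. The loader contains one copy of each of its subunits, and the other small subunits Rfc3 (-0.32, SE 0.55), Rfc4 (-0.45, SE 0.47) and Rfc5 (0.56, SE 1.01) overlapped between genotypes. Across the 47 genes, 28 had the same sign of fold change in both libraries (59.6%), and of all genes tested in both 59.3% did.

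**Figure D3:**
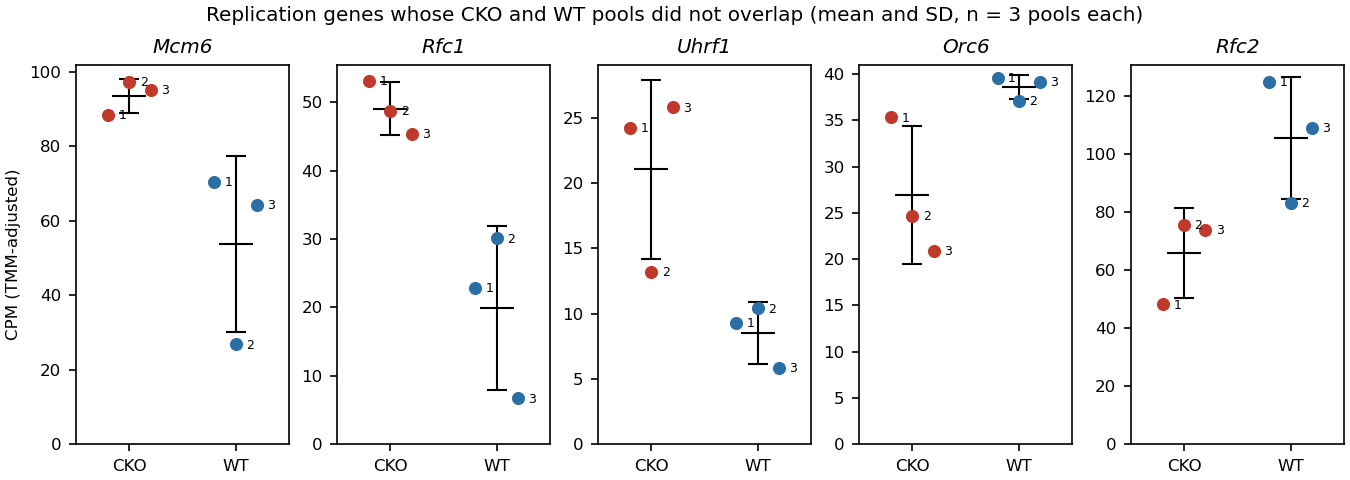
CPM of the 5 replication genes whose pools did not overlap between genotypes, each point 1 pool with its replicate number, CKO left and WT right, with the mean and SD of 3 pools. Mcm6, Rfc1 and Uhrf1 are higher in all CKO pools and Orc6 and Rfc2 lower, with the narrowest gap for Orc6, between 35.3 CPM in CKO pool 1 and 37.1 CPM in WT pool 2.

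The clamp Pcna, often used as a mark of S phase cells, had 46.9, 64.7 and 77.8 CPM in CKO pools and 98.2, 40.2 and 88.9 CPM in WT pools. WT pools 1 and 3 were the highest and WT pool 2 the lowest, and the log2 fold change was -0.26 (SE 0.39, edgeR adjusted p = 0.881). Processed copies of Pcna are listed in the tables, and the summary lines for reads with several alignments or low alignment quality held 0% of reads in every pool. How such reads were handled is not stated, so the Pcna count is uncertain. Rpa1, the large subunit of RPA and the highest of the 47 in CPM, had 136, 97.1 and 102 CPM in CKO pools and 127, 99.2 and 148 CPM in WT pools. The genotypes overlapped nearly throughout, and the edgeR log2 fold change was -0.16 (SE 0.25, adjusted p = 0.887). Rpa2 was at -0.28 (SE 0.27).

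The enzymes that finish the lagging strand were both slightly under 0. Lig1, the ligase that seals Okazaki fragments, had 14.3, 19.3 and 6.47 CPM in CKO pools and 22.0, 16.1 and 12.9 CPM in WT pools. CKO pool 3 was the lowest and the others overlapped, so that edgeR gave -0.35 (SE 0.51, adjusted p = 0.88), and 0.02 without CKO pool 3. Fen1, the flap nuclease, stood at 1.41 to 3.27 CPM in CKO pools and 1.84 to 4.05 CPM in WT pools.

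Of the 6 genes of nucleotide supply, 5 were below 0. Rrm1, the large subunit of ribonucleotide reductase, had 94.9, 90 and 102 CPM in CKO pools and 68.8, 56.8 and 188 CPM in WT pools. WT pool 3 alone lay above the CKO pools. The log2 fold change was -0.13 (SE 0.46, edgeR adjusted p = 0.951), and without WT pool 3 it was 0.60. Rrm2, the small subunit that is made in S phase, was at 0.76 (SE 0.52). Tyms, which makes thymidylate, gave the lowest fold change of the 47, with 15.1, 16 and 22.5 CPM in CKO pools and 41.8, 18.7 and 35.3 CPM in WT pools (-0.84, SE 0.41, edgeR adjusted p = 0.79). One WT pool lay inside the CKO range. Tk1 (-0.52), Dut (-0.43) and Ung (-0.07), which salvage thymidine, hydrolyse dUTP and remove uracil from DNA, all overlapped.

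Both E2F genes and all 3 genes of replication-coupled chromatin were above 0, but 3 of these 5 were among the scarcest genes. E2f1, the activator of S phase genes, had 2.72, 4.62 and 1.63 CPM in CKO pools and 0.811, 2.86 and 0.344 CPM in WT pools. E2f2 was at 1.26 (SE 1.69). WT pool 2 overlapped the CKO pools for E2f1, and its log2 fold change was 1.16 (SE 0.96, edgeR adjusted p = 0.816), with 0.70 without CKO pool 2 and 2.43 without WT pool 2. Uhrf1, which carries maintenance DNA methylation to new strands (chromosome 17, 56303321 to 56323486), had 24.2, 13.2 and 25.8 CPM in CKO pools and 9.26, 10.4 and 5.85 CPM in WT pools. All CKO pools were above all WT pools, with CKO pool 2 near the WT pools. Means were 21.1 ± 6.85 CPM in CKO pools and 8.49 ± 2.35 CPM in WT pools (SD, n = 3 each), and the log2 fold change was 1.31 (SE 0.46, edgeR unadjusted p = 0.0239, adjusted p = 0.79). In WT pool 3 the Uhrf1 reads were 216 in library 1 and 5 in library 2, and without that pool the fold change was 1.10. With WT pool 1 from its library 2 alone it was 1.02 and the pools overlapped. The chromatin assembly factor genes Chaf1a (1.24, SE 1.07) and Chaf1b (0.31, SE 1.00) overlapped.

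Levels between genes were compared as mean CPM over the 6 pools per kb of annotated exon. Over all pools Pcna, whose count is uncertain, averaged 28.9 CPM per kb, Pold2 and Gins4 27.7 each, Rpa2 24.3 and Rpa1 21.2. The spreads of these 5 genes overlapped and their order differed by genotype, with Pold2 at 30.9 and Pcna at 26.3 in CKO pools, and Pold2 at 24.4, Pcna at 31.6 and Gins4 at 31.6 CPM per kb in WT pools. Within the Mcm ring, whose subunits join in equal number, Mcm4 stood at 18.4, Mcm6 at 15.8, Mcm7 at 14.2, Mcm3 at 9.60, Mcm5 at 6.54 and Mcm2 at 5.51 CPM per kb. This order depends on the length used, the union of all annotated exons. Mcm2, with 6.96 kb, had means of 46.4 CPM in CKO pools and 30.3 CPM in WT pools. Mcm3, with 3.75 kb, had 36.5 and 35.6 CPM. The lowest levels were those of Chaf1a (0.277 CPM per kb), E2f2 (0.314) and Mcm10 (0.441). By CPM, 7 genes averaged under 5, 17 from 5 to 20 and 23 over 20.

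**Figure D4:**
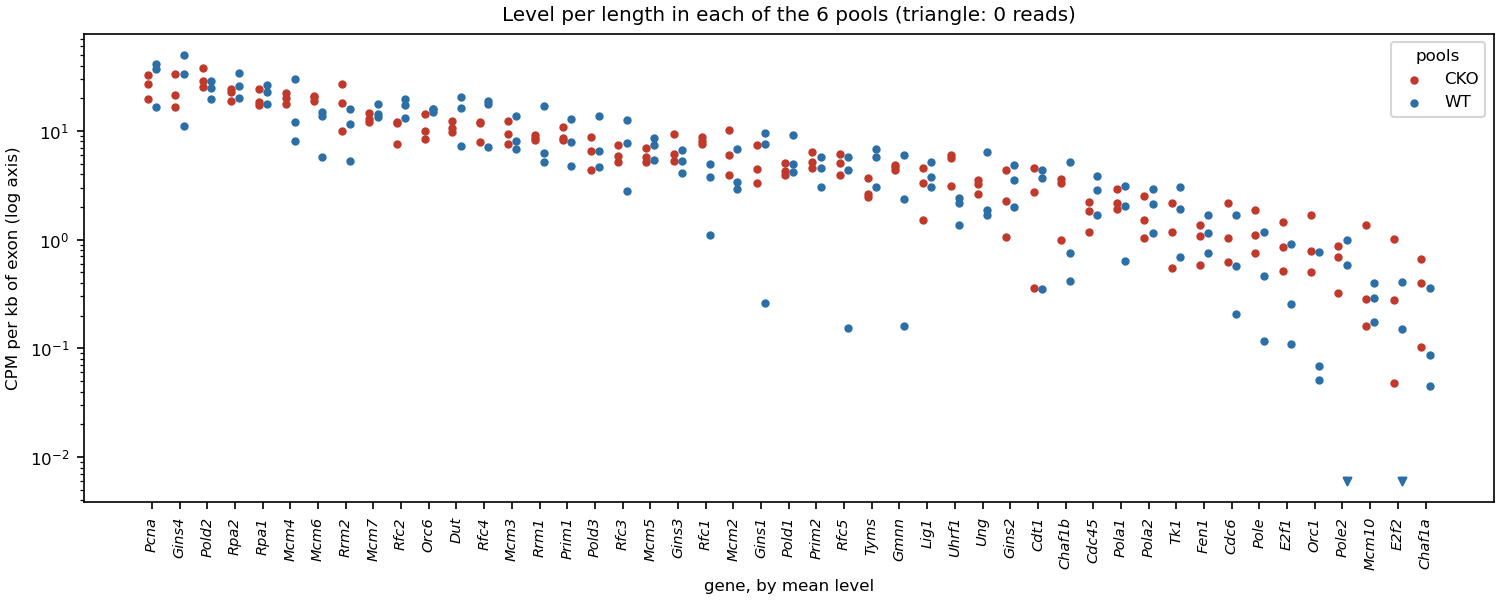
Level in CPM per kb of exon (log axis) of the 47 genes in each of the 6 pools, ordered by mean level, CKO points left and WT points right of each position. Pcna has the highest mean at 28.9 CPM per kb, close to Pold2 and Gins4 at 27.7, the points spread most among the scarce genes on the right, and triangles mark E2f2 and Pole2, at 0 reads in WT pool 3.

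Of 50 further replication genes, 31 were above 0 with a median log2 fold change of 0.24, and edgeR called 0 at an adjusted p under 0.05. Their pools did not overlap for 5 genes higher in CKO pools (10%, beside 7.67% of tested genes) and 3 lower (6%, beside 8.17%). At an unadjusted p under 0.05, 2 were higher in CKO pools (4%, beside 3.01%) and 0 lower (beside 2.9%). They were Ccne1, the cyclin of S phase entry (2.32, SE 0.62, edgeR adjusted p = 0.79), and Mcm8, a helicase of recombination repair (3.05, SE 0.95, edgeR adjusted p = 0.79). DESeq2 gave Ccne1 an adjusted p of 0.0105, while the libraries taken singly gave it log2 fold changes of 0.55 (library 1) and 3.59 (library 2). Mcm8 had 11.5, 4.08 and 10.6 CPM in CKO pools and 1.03, 1.94 and 0.185 CPM in WT pools. Next in that direction was Topbp1, which helps start replication (1.52, SE 0.71). In the other direction the smallest p-values were those of Rpa3 (-0.76, SE 0.41), Pold4 (-0.85, SE 0.47) and Clspn, a checkpoint mediator at forks (-1.24, SE 0.70).

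Genes of G2 and mitosis were set beside those of S phase. Of 20, 14 were above 0 with a median of 0.41, and edgeR called 0 at an adjusted p under 0.05. At an unadjusted p under 0.05, 6 were higher in CKO pools (30%, beside 3.01% of tested genes) and 1 was lower (5%, beside 2.9%). The pools did not overlap for 6 genes higher in CKO pools (30%, beside 7.67%) and for 0 lower (beside 8.17%). Bub1 of the spindle checkpoint (2.57, SE 0.82), the proliferation marker Mki67 (1.54, SE 0.51) and the topoisomerase Top2a (0.86, SE 0.29) had the smallest p-values upwards. Mki67 had 18.1, 23.9 and 29.7 CPM in CKO pools and 9.79, 11 and 3.95 CPM in WT pools, without overlap. Birc5, a subunit of the chromosomal passenger complex, was at -1.39 (SE 0.53), Tpx2 at -0.34 (SE 0.64) and Ube2c at -0.24 (SE 0.69). The list summed to 334, 335 and 498 CPM in CKO pools and 373, 221 and 339 CPM in WT pools, which overlapped. Over 20667 tested genes with an exon length, the log2 fold change rose with that length (rank correlation 0.24, and 0.18 over the 47). The 6 with an unadjusted p under 0.05 upwards were Mki67 (10.1 kb), Top2a (9.01), Cenpe (8.62), Prc1 (8.22), Kif11 (7.46) and Bub1 (4.35). Cenpf, with 15.4 kb, lay at -0.27, and Birc5 had 3.4 kb. The part of length in these values was not tested. Whether the lists differ from each other was not tested.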

How the data were processed

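RNA of sorted cells was made into cDNA with Smart-Seq2 and into libraries with Nextera XT, per the labels' protocols, which do not mark strand. The authors deposited raw read counts per gene symbol, made with Bowtie2 and HTSeq on GRCm38, per the submitters' processing notes. Neither versions nor the annotation nor the counting settings are stated in those notes. The 5 summary lines per table were left out: reads outside genes were 16% to 35.3% of reads per pool, ambiguous reads 2.51% to 3.43% and unaligned reads 11.2% to 21.7%. The 24 tables were summed to 6 pools, each of 2 libraries run on 2 lanes, and the pool was the replicate (n = 3 per genotype). Whether pools shared animals is not in the labels, so the p-values cover only the spread among these 6 pools.

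The CKO and WT pools were tested with edgeR 4.0.16 under R 4.3.3 (quasi-likelihood F test, robust, TMM, filterByExpr, 21477 genes, Benjamini-Hochberg adjustment over all, threshold 0.05), and SE is the fold change divided by the root of F. Common biological coefficient of variation was 0.725. Exact permutation tests used log2 of CPM plus 0.1. DESeq2 1.42.0 and limma 3.58.1 served as alternatives. Positions and exon lengths are those of GENCODE M21, matched by symbol, the length being the union of annotated exons.

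The 47 genes and the lists beside them were chosen with earlier results of these data known. Given with every pool are genes past a threshold, genes without overlap and the most abundant gene of each role. From the other lists come the 3 genes of smallest p in each direction. Other genes given singly, such as Orc1, Pole, Pcna and Tyms, were chosen after their values were seen. Without molecular identifiers on the reads, depth bears on counting error alone.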

Additional observations from a re-analysis of the deposited data

How the results depend on the processing

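Of 176 alternative values of the 11 genes given by rule (16 settings each), 169 kept their direction and their side of the threshold and 7 changed direction. Those were Rpa1 (0.04 with limma-voom), Rrm1 (0.44 with limma-voom, 0.09 with the replicate block, 0.15 in library 2 alone, -0.39 to 0.60 leaving out each pool, the highest without WT pool 3), Lig1 (-0.71 to 0.02, the highest without CKO pool 3) and Gins4 (-0.82 to 0.10, the highest without WT pool 1). The count of values kept says little about stability. Mcm6, Rfc1, Uhrf1, Orc6 and Rfc2 had pools without overlap, so leaving out a pool could hardly turn their direction. The lowest adjusted p of the 11 genes was 0.187 (Uhrf1, DESeq2), so the threshold was never near. Changes of size were not counted, as for E2f1 (0.70 to 2.43 leaving out each pool). The median log2 fold change of the 47 genes, -0.07, was 0.20 with limma-voom, 0.21 with the replicate block, 0.34 in library 1, 0.10 in library 2 and 0.08 with WT pool 1 from its library 2 alone, a setting chosen after seeing the data. All tested genes had medians of 0.03, 0.05, -0.05, -0.08 and -0.03 in those settings, in the same order. Leaving out each pool, the median of the 47 ran from -0.08 to 0.09, the highest without WT pool 1. That of all genes ran from -0.09 to 0.04. Genes of unadjusted p under 0.05 higher in CKO pools, 2, numbered 4 with limma-voom (beside 3.38% of all genes), 4 in library 1 (3.59%), 1 in library 2 (1.9%), 1 with WT pool 1 from library 2 (2.94%), and 0 to 5 leaving out each pool (0 without CKO pool 1 or 3, 5 without WT pool 2), where the share of all genes moved as well, between 1.73% and 6.65%. Those lower, 1, numbered 0 with RLE scaling, total counts, limma-voom, the replicate block, library 1 and WT pool 1 from library 2 (1.26% to 2.9% of all genes), and 0 to 2 leaving out each pool (2 without WT pool 2; 0.958% to 3.73%). The genes higher at an unadjusted p under 0.05 also changed, from Rfc1 and Uhrf1 to Orc1, Mcm2, Mcm10 and Rrm2 in library 1. In library 2 it was Rfc1 alone, with limma-voom Mcm4, Mcm6, Rfc1 and Uhrf1, and without WT pool 1 Mcm6, Uhrf1 and Chaf1b. Genes without overlap, 3 higher and 2 lower, numbered 6 higher and 1 lower in library 1 (8.57% and 8.58% of all genes) and 1 lower with total counts (6.13%). Leaving out each pool they numbered 4 to 9 higher (9 without WT pool 1, beside 12%) and 2 to 8 lower (8 without WT pool 2, beside 13.6%). With 5 pools fewer values must separate, and 11.7% to 17.6% of all genes were higher and 10.4% to 14% lower, so these counts cannot be read against those of 6 pools. DESeq2 called 124 genes in all, 80 higher and 44 lower in CKO pools, where edgeR and limma-voom called 0; 1269 genes had an unadjusted p under 0.05 in edgeR. Of the 50 other replication genes, 2 had an unadjusted p under 0.05, against 4 with DESeq2 (9.33% of all genes), 4 in library 2 (3.47%) and 2 to 6 leaving out each pool (6 without WT pool 2 or 3; 3.05% to 10.4%). The causes of these moves were not tested.

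Total-count scaling raised the median of all genes to 0.04, against -0.06, and put 52% of genes above 0, against 47.2%. Same-numbered CKO and WT pools deviated with correlations of 0.0559, 0.0218 and -0.028, so the numbers were not taken to pair pools, and the block fit gave Orc1 and Rfc1 as the genes of unadjusted p under 0.05. Scarce genes limit what depth can show: E2f2 and Pole2 had 0 reads in WT pool 3, and 7 genes averaged under 5 CPM.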
